A study of Mus musculus with 6 samples.

Results

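Voltage-gated potassium (Kv) channels were examined through 8 pore-forming subunit genes: Kcna1, Kcna2, Kcna4 and Kcna6 of the Kv1 subfamily, Kcnc1 and Kcnc2 of the Kv3 subfamily, and Kcnd2 and Kcnd3 of the Kv4 subfamily. They were taken by symbol, as all probe sets annotated to a listed symbol and to no other gene, which gave 26 probe sets of the 45037 on the array besides controls and 8 of the 18193 genes with such a probe set. A probe set is the group of short probes that the array reads as 1 value, here a log2 signal. Total RNA of mouse brain tissue, given as cerebellum in the series title, was measured on 6 Affymetrix arrays: 3 of wild-type mice (arrays 1 to 3) and 3 of Gb5-deficient mice (arrays 4 to 6), with each array taken as a separate mouse on the word of the series design. The Gnb5 gene codes for Gb5, a neuronal G protein beta subunit. The labels name no strain, age or construct and no agent; they state littermate cohorts of matched age and sex, without saying which mice were littermates. All values below are compared as Gb5-deficient minus wild type.

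Kv channels are tetramers that open on depolarization and let potassium out of the cell, which repolarizes the membrane and limits firing. Kv1 subunits carry low-threshold currents in axons and terminals, and in the cerebellum they are concentrated in basket cell terminals around the Purkinje cell axon. Kv3 subunits open only at strong depolarization and close quickly, which allows fast spiking. Kv4 subunits carry the transient A-type current of cell bodies and dendrites and work with cytosolic KChIP and membrane-spanning DPP partners.

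The deletion and the tissue were checked first. The brighter Gnb5 probe set read 8.80, 8.51 and 8.70 on the wild-type arrays and 3.65, 3.36 and 2.96 on the Gb5-deficient arrays (limma adjusted p = 4.33e-06). Markers of the cerebellum were bright in both genotypes: Pcp2 of Purkinje cells averaged 12.62 and 12.68, and Cbln1 of granule cells 13.23 and 13.24 (log2, wild type and Gb5-deficient). Array 6 stood apart, although the labels state matched sexes. The Y-linked Eif2s3y read 11.80 there against 3.19 to 3.43 on the others. Xist, which is expressed from the inactive X, read 6.64 against 11.11 to 11.35. By these genes array 6 read as male and all other arrays, those of wild type included, as female. The 3′ minus 5′ signal of the Gapdh control was 1.58 on array 6 against 1.03 to 1.14. Listed markers of other brain regions were also measured, and none passed. Slc6a3, the dopamine transporter, had a difference of -1.33 (limma adjusted p = 0.203, and 0.027 at its lowest when single arrays were left out). Tbr1, a forebrain transcription factor, had one of -0.48 (limma adjusted p = 0.525), and both were without overlap between genotypes. The other tested region markers overlapped: Pou4f1 had 0.60, Th -0.37, Neurod6 0.16 and Lamp5 -0.029. A second Pou4f1 probe set had 0.0061. The part of these markers in the Kv values was not tested.

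No Kv subunit gene passed the test, and the mean differences of the 8 genes ran from -0.34 for Kcnc2 to 0.11 for Kcna6 on the log2 scale. Each gene was represented by its probe set with the highest mean over all arrays, and all 8 passed the filter on low signal (4.70, log2). Of the 14067 genes tested with limma, 5 (0.0355%) had an adjusted p under 0.05, and 0 of the 8 Kv subunits did. Before adjustment, 1 of the 8, Kcnc2, had a limma p under 0.05, against 8.57% of all tested genes. In 0 of the 8 the arrays of the genotypes did not overlap, against 14.9% of all tested genes. By gene, 7 of the 8 had a lower mean and 1 a higher mean in Gb5-deficient tissue, with a median difference of -0.07 (log2) against 0.03 over all tested genes, of which 43.3% were lower. The count of lower genes was 5 without wild-type array 1 and 5 without Gb5-deficient array 6, where the medians were -0.03 and -0.05. In tissue RNA, fewer cells of a type and less RNA per cell cannot be told apart.

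**Figure D1:**
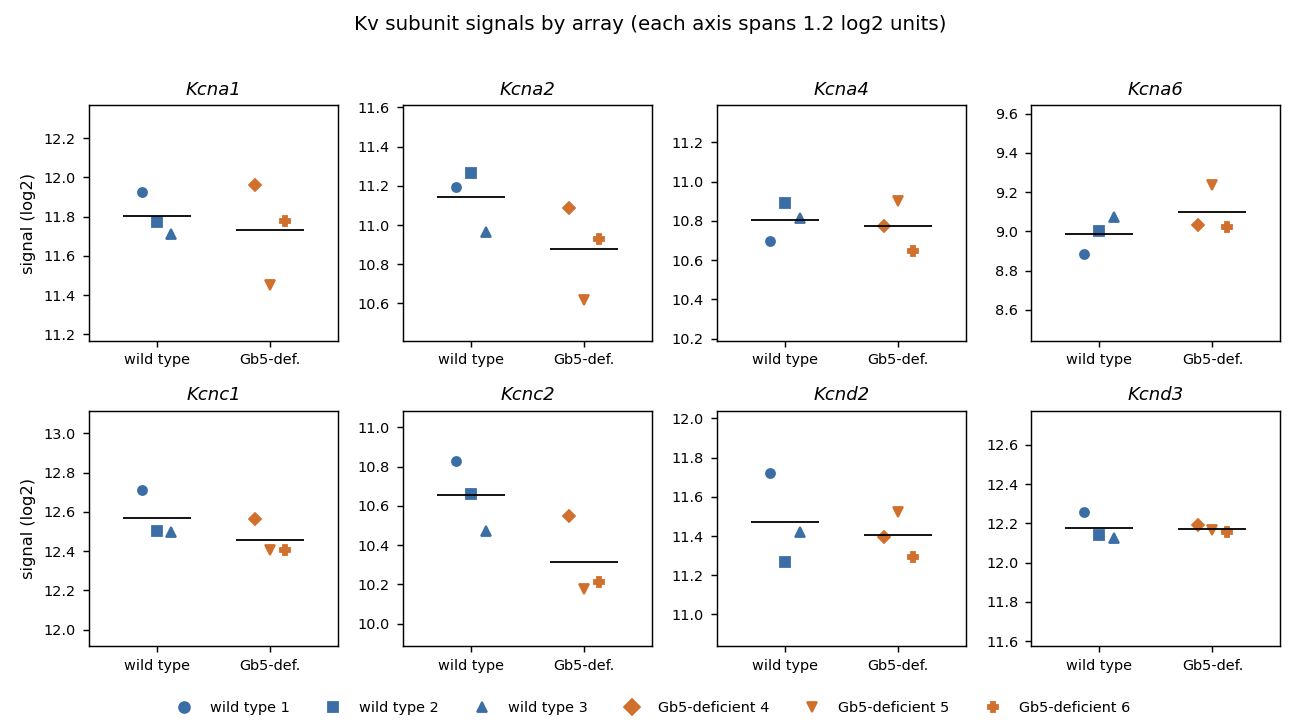
Log2 signal (vertical axis) of the probe set representing each of 8 Kv subunit genes on 3 wild-type arrays (blue) and 3 Gb5-deficient arrays (orange); a horizontal line is the group mean, and every panel spans the same height. The genotypes overlap in all 8 panels, and array 5 (inverted triangle) is the lowest point for Kcna1, Kcna2, Kcnc1 and Kcnc2.

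The wild-type signals cannot be read as a ranking of the subunits, because probe sets differ in how strongly they bind and light up; they place each probe set among all probe sets of the array. The representative probe sets of all 8 genes lay in the upper part of the array, between the 75.8th percentile of all wild-type probe set means for Kcna6 and the 98.4th for Kcnc1. Each was chosen as the brightest of its gene but placed among all probe sets, which favours a high place. Among Kv1 genes the percentile was 95.7 for Kcna1, 92.3 for Kcna2 and 90.1 for Kcna4. In the Kv3 subfamily the percentile of Kcnc2 was 89.0. In the Kv4 subfamily it was 94.1 for Kcnd2 and 97.2 for Kcnd3. The same gene could lie at both ends: the dimmest probe set of Kcna1 lay at the 7.38th percentile and that of Kcna2 at the 5.28th.

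Kcna1 encodes an axonal Kv1 subunit whose mutation causes episodic ataxia. Its representative probe set gave 11.93, 11.77 and 11.71 on the wild-type arrays and 11.96, 11.45 and 11.78 on the Gb5-deficient arrays. Arrays 1 and 4 were high and array 5 was low, so the genotypes overlapped, and the difference of -0.073 (SE 0.12, 95% interval from -0.36 to 0.21) was smaller than the spread between Gb5-deficient arrays (SD 0.26, n = 3; limma adjusted p = 0.842). Its other bright probe sets gave differences of -0.058 and -0.056. Without array 5 the representative value was 0.066.

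Kcna2 forms mixed channels with Kcna1 along axons. It gave 11.20, 11.26 and 10.96 on the wild-type arrays and 11.09, 10.62 and 10.93 on the Gb5-deficient arrays, with array 5 again the lowest. The difference was -0.26 (SE 0.13, 95% interval from -0.56 to 0.03; limma adjusted p = 0.603), and it was -0.13 without array 5. A second bright probe set, 1439872_at, gave 11.103, 11.047 and 11.044 on the wild-type arrays and 10.930, 10.824 and 10.998 on the Gb5-deficient arrays. There all Gb5-deficient arrays lay below all wild-type arrays, with a difference of -0.15 that did not pass when each probe set was tested (limma adjusted p = 0.687). The remaining pair of Kcna2 probe sets was dim, with differences of -0.14 and -0.059.

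Kcna4 encodes the Kv1 subunit that inactivates quickly through an N-terminal ball. It gave 10.70, 10.89 and 10.82 on the wild-type arrays and 10.77, 10.90 and 10.65 on the Gb5-deficient arrays, and the genotypes overlapped fully. The difference was -0.028 (SE 0.095, 95% interval from -0.24 to 0.19; limma adjusted p = 0.926), and it was 0.036 without array 6, with the sign turned. Its second probe set had a difference of 0.10, which was 0.23 without array 6 and 0.032 without array 5.

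Kcna6 encodes a further Kv1 subunit of the delayed rectifier type, and its gene lies next to Kcna1, which in turn lies next to Kcna5, on chromosome 6. Its representative probe set gave 8.884, 9.002 and 9.073 on the wild-type arrays and 9.031, 9.237 and 9.024 on the Gb5-deficient arrays. The difference of 0.11 (SE 0.11, 95% interval from -0.13 to 0.35; limma adjusted p = 0.726) was the only one above 0 among the 8 representative probe sets, and it was 0.041 without array 5 and 0.060 without wild-type array 1. A dimmer probe set of the gene, 1441049_at, went the other way, from 5.63, 5.93 and 5.95 to 5.45, 5.51 and 5.41. Its arrays did not overlap between genotypes, and its difference was -0.38 (SE 0.13; limma adjusted p = 0.619 when each probe set was tested). The third Kcna6 probe set had a difference of 0.083, with SDs of 0.32 and 0.40 in the genotypes (n = 3 each).

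Kcnc1 encodes a Kv3 subunit of fast-spiking neurons and of cerebellar granule cells. Its representative probe set, 1443855_at, gave 12.71, 12.50 and 12.50 on the wild-type arrays and 12.56, 12.41 and 12.41 on the Gb5-deficient arrays. Array 1 and array 4 were the highest of their genotypes, the genotypes overlapped, and the difference was -0.11 (SE 0.075, 95% interval from -0.28 to 0.06; limma adjusted p = 0.637). It was -0.042 without wild-type array 1.

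A second Kcnc1 probe set, 1456944_at, was higher on every Gb5-deficient array than on any wild-type array. It gave 9.76, 9.86 and 9.94 on the wild-type arrays and 10.24, 10.22 and 10.50 on the Gb5-deficient arrays, so that array 6 was the highest. The difference was 0.46 (SE 0.10, 95% interval from 0.23 to 0.70), the largest of the 26 probe sets in either direction, and it did not pass when each probe set was tested (limma adjusted p = 0.440). It ranged from 0.37 to 0.51 when single arrays were left out, the lowest being without array 6. On array 6 the sex-linked genes and the Gapdh control differed too, and a part of either in the result was not tested. The other Kcnc1 probe sets had differences of 0.15 and 0.079.

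**Figure D2:**
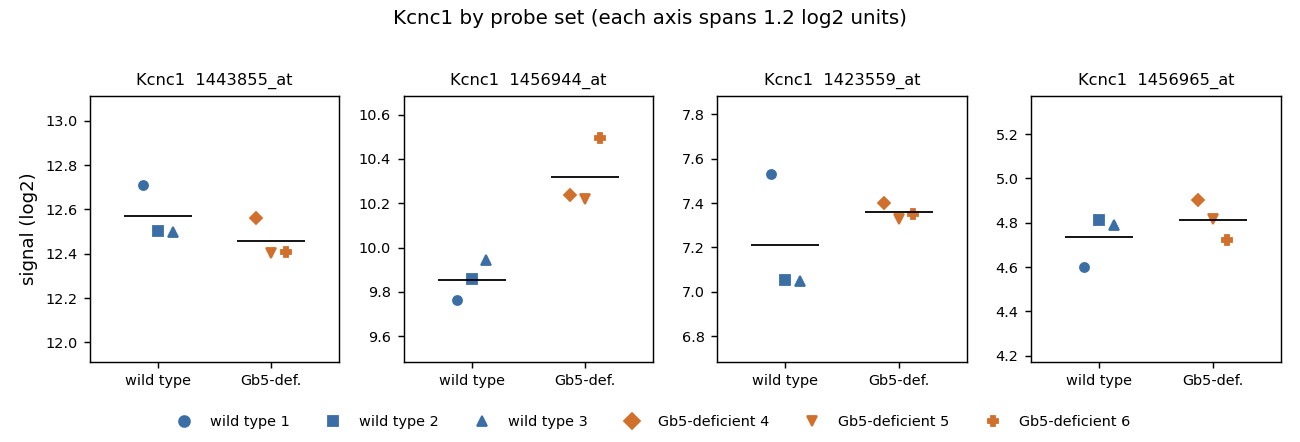
Log2 signal (vertical axis) of the 4 Kcnc1 probe sets on 3 wild-type arrays (blue) and 3 Gb5-deficient arrays (orange), with group means as lines and equal spans in all panels. Only 1456944_at separates the genotypes (9.76 to 9.94 against 10.22 to 10.50); the brightest, 1443855_at, has a difference of -0.11.

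To set probe sets of a gene against each other, the signal of the dimmer was taken minus that of the brighter on each array, for the 20 pairs above the filter in 7 genes. For Kcnc1 the value of 1456944_at minus 1443855_at was -2.95, -2.64 and -2.55 in wild type and -2.32, -2.19 and -1.91 in Gb5-deficient tissue, a shift of 0.58. For Kcna6 the value of 1441049_at minus the representative probe set was -3.26, -3.08 and -3.13 in wild type and -3.59, -3.73 and -3.61 in Gb5-deficient tissue, a shift of -0.49. An exact two-sided permutation test of 3 against 3 arrays cannot give a p below 0.1, and 5 of the 20 pairs, 4 of Kcnc1 and 1 of Kcna6, reached that value, with no overlap between genotypes. Over the 20474 such pairs of all genes, 13.1% did not overlap. These pairs were looked at after the values were seen, several share a probe set, and the place of each probe set in its transcript was not used here. Some of the Kcnc1 pairs rest on 1456965_at, whose wild-type mean of 4.73 lay near the filter (4.70). For 1456965_at minus 1443855_at the highest wild-type value was -7.688 and the lowest Gb5-deficient value -7.684.

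Kcnc2 encodes a Kv3 subunit found in inhibitory interneurons and projection neurons, and 1 probe set measured this gene. It gave 10.83, 10.66 and 10.47 on the wild-type arrays and 10.55, 10.18 and 10.21 on the Gb5-deficient arrays. Array 4 lay above the lowest wild-type array, so the genotypes overlapped. The difference of -0.34 (SE 0.13, 95% interval from -0.64 to -0.04) was the lowest of the 8 genes and did not pass (limma adjusted p = 0.573). It stayed between -0.46 and -0.25 when single arrays were left out. Of 6 markers of molecular layer and Golgi interneurons, which can hold this subunit, 5 had higher values and 1 a lower one. The log2 of their summed signal ran from 13.17 to 13.33 in wild type and from 13.20 to 13.36 in Gb5-deficient tissue. Signals were summed before the log, so this sum rests mostly on Pvalb and Gad1 (wild-type means 12.59 and 11.35). Kit, Slc6a5, Sorcs3 and Grm2 had wild-type means between 6.50 and 8.17 and add little to it. None of the 6 markers passed. Gad1, the GABA-synthesizing enzyme, had a difference of -0.097. Sorcs3, a sorting receptor, had one of 0.33 (0.14 without array 5). Grm2, a glutamate receptor of Golgi cells, had one of 0.41 without overlap. The summed signal was not read as a measure of interneuron content, and the part of these markers in the Kcnc2 value was not tested.

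Kcnc1 and Kcnc2 had the highest Pearson's r over the 6 arrays of all 28 pairs of the 8 genes (0.909). Many other tested genes were closer: 117 had an r over 0.95 to Kcnc1 and 157 to Kcnc2. The sequences before the start sites of Kcnc1 and Kcnc2 are shown, and shared control of these genes was not tested. The windows are the 250 bases before a RefSeq start (build GRCm38.p6), read in the direction of the gene, with GGGCGG on either strand, the core of a GC box, in capitals. The first lies at chr7:46396218-46396467 and the second at chr10:112269767-112270016, both on the plus strand.
Kcnc1: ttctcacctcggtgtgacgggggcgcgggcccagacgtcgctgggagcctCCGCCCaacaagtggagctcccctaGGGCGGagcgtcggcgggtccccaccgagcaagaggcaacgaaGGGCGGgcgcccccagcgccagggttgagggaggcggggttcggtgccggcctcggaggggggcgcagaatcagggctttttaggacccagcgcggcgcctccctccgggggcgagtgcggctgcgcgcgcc
Kcnc2: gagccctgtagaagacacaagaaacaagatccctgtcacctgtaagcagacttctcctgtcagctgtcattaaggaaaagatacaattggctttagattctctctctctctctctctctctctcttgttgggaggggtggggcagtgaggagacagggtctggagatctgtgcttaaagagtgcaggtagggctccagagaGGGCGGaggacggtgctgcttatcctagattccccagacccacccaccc

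The Kcnc1 window held the GC box letters at 3 places and the Kcnc2 window at 1, while the other 3 start windows listed for Kcnc2 held none. G and C made up 74.4% of the Kcnc1 window and 52.4% of the printed Kcnc2 window, against a median of 52.4% over all windows. GGGCGG was in 33.0% of the 32536 distinct windows of this length, and in 4 of the 10 windows of the Kv genes (7 of the 8 genes had a window, and Kcna1 did not). TATAAA (12.3% of all windows), TGACGTCA (1.56%) and CACGTG (6.04%), searched on both strands, were in none of the 10.

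Kcnd2 encodes a Kv4 subunit found in granule cells, among other cells. It gave 11.72, 11.27 and 11.42 on the wild-type arrays and 11.39, 11.53 and 11.29 on the Gb5-deficient arrays, where array 1 was the highest and array 2 the lowest of all. The difference was -0.065 (SE 0.12, 95% interval from -0.34 to 0.21; limma adjusted p = 0.854), and it was 0.061 without array 1 and -0.0099 without array 6. Its other probe sets above the filter had differences of 0.028 and -0.15, which were -0.035 and -0.062 without array 6. Of 6 granule cell markers 0 passed, and 3 had higher values and 3 lower ones, with a median difference of -0.027. Fat2 and Grin2c had differences of 0.35 and 0.51 without overlap between genotypes. Gabra6, Neurod1 and Zic1 had -0.18, -0.095 and -0.066, and Cbln1 had 0.013. The log2 of the summed signal of the 6 ran from 14.8195 to 15.0035 in wild type and from 14.6707 to 15.0253 in Gb5-deficient tissue. The part of these markers in the Kcnc1 and Kcnd2 values was not tested.

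Kcnd3, the second Kv4 gene, had the narrowest values of the 8. Its representative probe set gave 12.26, 12.14 and 12.13 on the wild-type arrays and 12.19, 12.17 and 12.16 on the Gb5-deficient arrays. The difference was -0.0041 (SE 0.058, 95% interval from -0.14 to 0.13; limma adjusted p = 0.984), and it was 0.038 without wild-type array 1 and 0.0033 without array 6. The 3 dimmer Kcnd3 probe sets had differences of -0.093, -0.19 and -0.17, and the genotypes overlapped in each.

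Over all 26 probe sets, 21 passed the filter on low signal and 5 did not. When each of the 45037 probe sets was tested, 10 (0.0222%) passed and 0 of the 26 did, the lowest adjusted p being 0.440. Before adjustment, 3 of the 26 had a limma p under 0.05: the Kcnc1 probe set 1456944_at, the Kcna6 probe set 1441049_at and that of Kcnc2; the share of all probe sets was 7.61%. The arrays of the genotypes did not overlap in 3 of the 26, against 13.6% of all probe sets, which is near the background. Probe sets of a gene share its RNA and are not separate replicates.

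**Figure D3:**
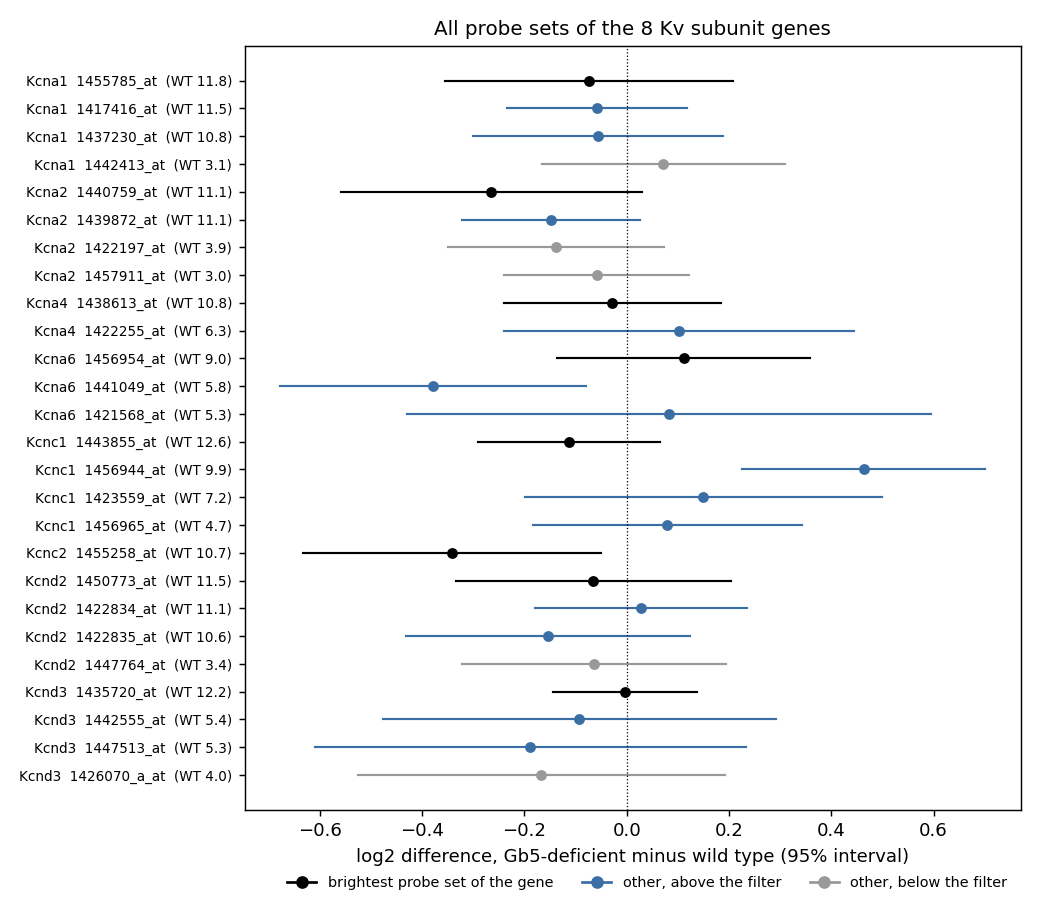
Log2 difference, Gb5-deficient minus wild type (horizontal axis), with its 95% limma interval for the 26 probe sets of 8 Kv subunit genes; the label gives the wild-type mean signal (log2), and colour marks the representative probe set, the others above the filter and those below it. Intervals of 23 probe sets include 0; those of Kcnc1 1456944_at (0.23 to 0.70), Kcna6 1441049_at (-0.68 to -0.08) and Kcnc2 (-0.63 to -0.05) do not, before adjustment over all probe sets.

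Across the 6 arrays the signals of several Kv genes followed one another, which is given as a description over arrays that share RNA and normalization. After the Kv3 genes Kcnc1 and Kcnc2, the next highest Pearson's r was 0.877 between Kcna2 and Kcnc2. Kcna1 and Kcna2 had an r of 0.813. Kcna6 ran opposite to them, with an r of -0.871 to Kcna1 and -0.879 to Kcna2. Array 5 was the lowest of all 6 for 4 of the 8 genes and the highest for Kcna4 and Kcna6.

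The tested gene closest to Kcna1 over the 6 arrays was Kcnab1 (r = 0.999), which encodes the cytosolic beta subunit of Kv1 channels; its own difference was -0.096. The next was Cadps2 (r = 0.998), a gene of dense-core vesicle release. For Kcna2 the closest were Cetn2 and Raph1 (r = 0.998 and 0.994), for Kcna4 Mrpl40 and Gpr61 (0.997 and 0.994), and for Kcna6 Pnoc and Ttc12 (0.997 and 0.994). For Kcnc1 they were Sec62 and Xbp1 (0.991 and 0.989), for Kcnc2 B3galt2 and B3galt1 (0.995 and 0.994), for Kcnd2 Ankrd27 and Fndc3b (0.986 and 0.978), and for Kcnd3 Stx7 and Mideas (0.993 and 0.989). Such values are usual for 6 points and 14067 genes: the highest r of a tested gene to any other had a median of 0.995.

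Other pore-forming genes of these subfamilies gave no call either. Of the 5 analysed here, 4 passed the filter and 0 passed the test. Differences were 0.14 for Kcna5, -0.023 for Kcna7, 0.16 for the fast-inactivating Kv3 gene Kcnc4 and -0.0049 for Kcnd1, while Kcna3 was below the filter (-0.062). Kcnd1, the third Kv4 gene, again had probe sets that went apart. Its dimmer probe set 1446556_at gave 5.23, 5.48 and 5.29 on the wild-type arrays and 5.74, 6.17 and 6.88 on the Gb5-deficient arrays, with array 6 the highest. That difference of 0.93 did not pass (limma adjusted p = 0.547 when each probe set was tested) and was 0.62 without array 6.

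Among the lists of Kv genes and partners, that of Kv4 partners had the most genes without overlap between genotypes, though none passed. Of 6 tested, 3 were without overlap in either direction, against 14.9% of all tested genes. In these 3 all Gb5-deficient arrays lay above all wild-type arrays. They were Dpp6, a membrane-spanning Kv4 partner, with a difference of 0.26, and the KChIP genes Kcnip1 and Kcnip3, with 0.30 and 0.30. Their limma adjusted p was 0.573, 0.573 and 0.574. The other probe sets of these genes gave smaller values: Dpp6 had 0.0034, Kcnip1 had 0.18, 0.18 and 0.17, and Kcnip3 had -0.033. Without array 6 the values were 0.20 for Dpp6, 0.34 for Kcnip1 and 0.20 for Kcnip3. Kcnip4 had a value of -0.21, Kcnip2 one of 0.12 and Dpp10 one of -0.064, and the median of the 6 was 0.19. Other probe sets gave -0.12 and -0.28 for Kcnip4, -0.28 and -0.13 for Kcnip2, and 0.091 for Dpp10.

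Partners of Kv1 channels (10 tested, 0 passing) had a median of -0.0067. The beta subunits Kcnab1, Kcnab2 and Kcnab3 had differences of -0.096, 0.13 and 0.012. The other probe set of Kcnab3 had -0.27 without overlap between genotypes (limma adjusted p = 0.649 when each probe set was tested). Those of Kcnab1 and Kcnab2 had -0.048 and 0.097 and overlapped. The axonal clustering proteins Cntnap2 and Cntn2 had 0.064 and 0.079, and Lgi1 and its receptor Adam22 had -0.025 and -0.070. The largest value was that of the scaffold gene Dlg4 (0.49), where array 5 read 9.31 against 8.45 and 8.56 on the other Gb5-deficient arrays. It was 0.22 without array 5. The other Dlg4 probe sets had -0.12 and -0.010, and the related scaffold genes Dlg1 and Dlg2 had -0.060 and -0.084. Among oligodendrocyte markers, whose sheath flanks the axonal Kv1 clusters, Mal and Mog had differences of -0.29 and -0.16 without overlap between genotypes, Mag and Mbp had 0.18 and 0.020, and none passed. The log2 of the summed signal of these 4 ran from 14.52 to 14.55 in wild type and from 14.41 to 14.49 in Gb5-deficient tissue; its part in the Kcna1 and Kcna2 values was not tested.

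In more distant groups none passed either. Electrically silent subunits, which alter Kv2 channels, had 6 tested genes and a median of 0.079. Kcns2 had 0.35 (0.099 without array 5), its other probe set had -0.041, and Kcng4 had 0.21. Kcne subunits and the Kv2 partner Amigo1 had 3 tested genes; Kcne2 had a value of -0.38 with SDs of 1.48 and 1.39, and Kcne4 one of 0.12. With single arrays left out, Kcne2 ran from -0.92 (without array 6) to 0.48 (without wild-type array 1) and Kcne4 from 0.060 to 0.21. Choroid plexus markers, from a tissue that expresses Kcne2, also varied within a genotype. Their SDs in wild type and Gb5-deficient tissue were 0.21 and 1.13 for Ttr and 0.97 and 0.79 for F5. For Kl they were 1.40 and 1.03, for Folr1 0.91 and 0.96, and for Clic6 1.07 and 0.51. The part of these markers in the Kcne2 value was not tested. Kv7 genes had 3 tested and a median of 0.17 (Kcnq3 0.21, Kcnq1 0.17), and the Kv10 to Kv12 group had 4 tested and a median of 0.14 (Kcnh8 0.37, and 0.079 without wild-type array 1; Kcnh2 0.29). With single arrays left out, Kcnq3 was 0.11 at its lowest, Kcnq1 0.11 (without array 6) and Kcnh2 0.15.

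**Figure D4:**
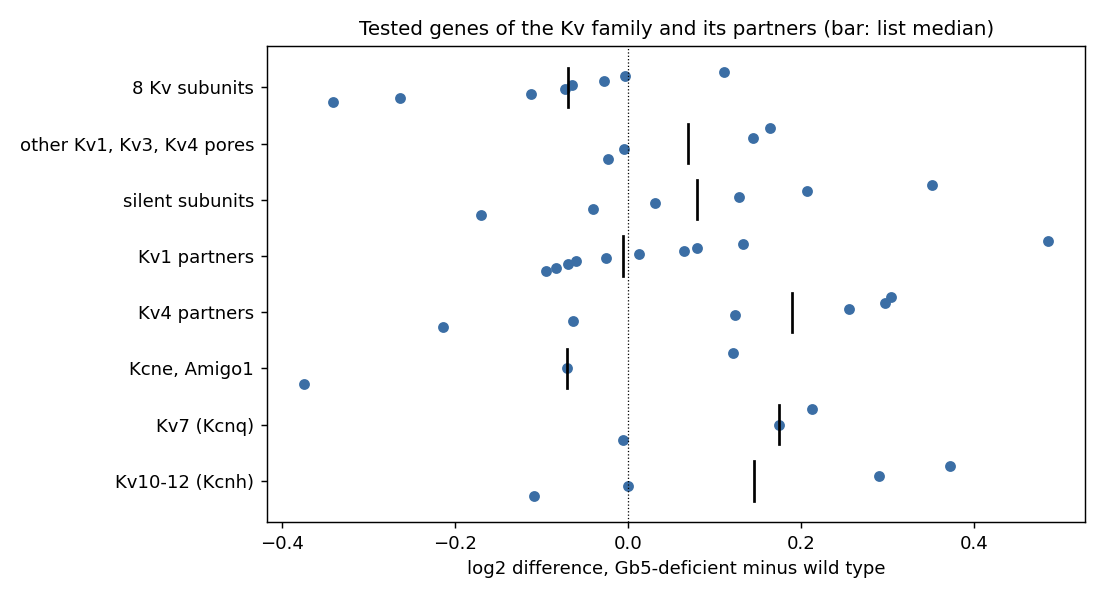
Log2 difference, Gb5-deficient minus wild type (horizontal axis), of each tested gene in the 8 Kv subunits and in 7 lists of related pore genes and partners; each point is 1 gene's representative probe set and the bar is the list median. No gene shown passed the test; medians run from -0.07 for the 8 Kv subunits and the Kcne group to 0.19 for Kv4 partners.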

How the data were processed

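Expression was deposited by the authors on the log2 scale, as 1 value for each probe set on each array; RMA and Partek are named in the submitters' processing notes, without versions. RMA quantile-normalizes arrays, so a global change in RNA would not be seen. No detection calls or scan dates were used here. Samples were grouped by the genotype in their titles.

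Of 45101 probe sets 64 are controls; 34945 are annotated to 1 gene, 932 to several and 9160 to none listed. Symbols were updated by Entrez identifier in RefSeq (34741 matched, 204 kept theirs). Each gene was represented by its brightest probe set and kept above the 30th percentile of all means. limma 3.58.1 in R 4.3.3 (intensity trend, two-sided, Benjamini-Hochberg, threshold 0.05) was fitted across all 14067 genes and, separately, all 45037 probe sets; the fit by gene was tested on simulated data. The genes and lists were chosen with earlier results of these data known. Named genes are the 8 subunits, Gnb5, other Kv1, Kv3 and Kv4 pore genes, the 2 largest differences of each list of Kv genes and partners, and the 2 closest genes by r; others, all cell type markers included, were chosen after their values were seen. Alternatives were other filters, normalizations, probe choices, variance models, array weights and each array left out.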

Additional observations from a re-analysis of the deposited data

How the results depend on the processing

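None of the 8 Kv genes passed under any of the 14 alternatives by gene, nor any of their 26 probe sets with the 30th percentile filter or with single arrays left out. Kcna2 and Kcnc2 kept a value below 0 in every alternative. The other 6 have values near 0 and changed sign in at least 1. Filters and variance models leave a gene's value unchanged and could not turn a sign. The same holds for the mean of probe sets for Kcnc2, which has 1 probe set. With the mean of a gene's probe sets, Kcna4 was 0.037, Kcna6 -0.062 and Kcnc1 0.14. With array weights, Kcna1 was 0.011 and Kcnd3 0.019. With a second quantile normalization Kcnd3 was 0.014. When single arrays were left out, values ran from -0.19 to 0.066 for Kcna1, -0.092 to 0.036 for Kcna4, -0.17 to 0.061 for Kcnd2 and -0.028 to 0.038 for Kcnd3. The number of all tested genes that passed was 8 without a filter, 3 with the 50th percentile filter, and 2 to 10 with single arrays left out; that of probe sets was 6 to 24. The count of Kv genes with a lower value, a summary added after seeing the data, ran from 5 to 7 over all alternatives. No paired analysis was possible because the arrays are numbered 1 to 6 with no number shared between genotypes. The number of arrays limits precision: the median SE of a tested gene was 0.12.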
